A study of Homo sapiens with 72 samples.

Results

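GLUL, GLUD1, GOT1, GOT2, GPT2, ALDH18A1, PYCR1 and OAT encode enzymes that make, use or pass on glutamate. They were chosen by gene symbol, with earlier results of these data known. All 8 were found among the 44659 gene names of the count table. Shares of all genes printed beside counts of members are therefore a description and no test of the set. Messenger RNA levels were measured in A375, an established human skin melanoma cell line, with QuantSeq, which counts the 3′ ends of polyadenylated RNA, here in RNA of the cytoplasmic fraction. In 1 experiment, cells were kept for 18 h without glutamine (mQ) or in fresh medium with glutamine (pQ). In the other, cells were used 42 h after transfection with a pool of siRNAs against CTU2 (siCTU2), a subunit of the enzyme that thiolates the wobble uridine of some tRNAs, or with the control siRNA siGL2. All 4 conditions then received 25 µM triptolide, which blocks transcription, either alone (T arm) or with 100 µg/ml cycloheximide, which blocks translation (TCHX arm), and were harvested at once (0 h) or after 3 or 5 h. This gave 24 groups of 3 libraries, 72 in all, with 5987692 to 15534331 counts each. No group is free of triptolide, so the 0 h libraries stand in for untreated cells. Only 1 cell line was used, and the labels do not say whether the 3 libraries of a group came from separate cultures, so p-values measure the spread between these libraries, which may be technical.

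Glutamine is the main nitrogen carrier of cultured cells. Glutamine synthetase, encoded by GLUL, makes it from glutamate and ammonia. Glutamate gives its amino group to other amino acids through transaminases and its carbon to the citric acid cycle through glutamate dehydrogenase, encoded by GLUD1. GOT1 and GOT2 are the cytosolic and mitochondrial aspartate transaminases, and GPT2 is the mitochondrial alanine transaminase. ALDH18A1 makes the precursor from which proline and ornithine derive, PYCR1 carries out the last step to proline in mitochondria, and OAT interconverts ornithine and that same precursor. Loss of an amino acid is known to raise many genes of amino acid synthesis through the transcription factor ATF4.

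The libraries were checked before the members were read. CTU2 was measured at 0.133 to 2.95 CPM (the count of a gene scaled by the total count of its library) in 17 of the 18 siCTU2 libraries and at 17.5 to 35.0 CPM in the 18 siGL2 libraries. The remaining library, labelled siCTU2 TCHX 5 h replicate 3, held 10.4 CPM. That library, mQ T 5 h replicate 3 and pQ TCHX 0 h replicate 3 stood apart: they held 19896 to 20364 detected genes, against 15507 to 17495 in the other 69, and 31.1 to 32.6 CPM of the leukocyte gene PTPRC, against at most 0.759 CPM. The 5 markers of other cell types (PTPRC, PECAM1, KRT5, KRT14, COL1A1) summed to 33.6 to 34.5 CPM in these 3 libraries and to 0 to 1.52 CPM in the other 69. The sum in the 3 was mostly PTPRC, with 1.60 to 2.57 CPM of COL1A1. KRT5 was at 0 there, KRT14 at most at 0.089 CPM and PECAM1 at most at 0.177 CPM. Of 10 melanocyte lineage markers, 7 had a median of at least 1 CPM, while the pigment genes MLANA, TYR and TYRP1 did not. Where a call rests on 1 of the 3 libraries, its value without it is given.

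In the T arm at 0 h, glutamine depletion raised GPT2, PYCR1 and GOT1 and lowered OAT. GPT2 was 4.19-fold, PYCR1 3.46-fold and GOT1 2.68-fold higher in mQ than in pQ cells, and OAT was 4.14-fold lower. These 4 of 8 members passed the test (edgeR quasi-likelihood test, adjusted p under 0.05 over all 12374 genes tested), against 24.8% of all genes tested, 12.5% higher and 12.4% lower. The members' median log2 difference was 0.15, beside 0.0098 over all genes tested. ALDH18A1, GLUL, GLUD1 and GOT2 did not pass. The call for OAT was lost in the TCHX arm with all its libraries and with both arms fitted together. In bulk libraries, fewer cells that hold an mRNA and less of it per cell cannot be told apart.

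**Figure D1:**
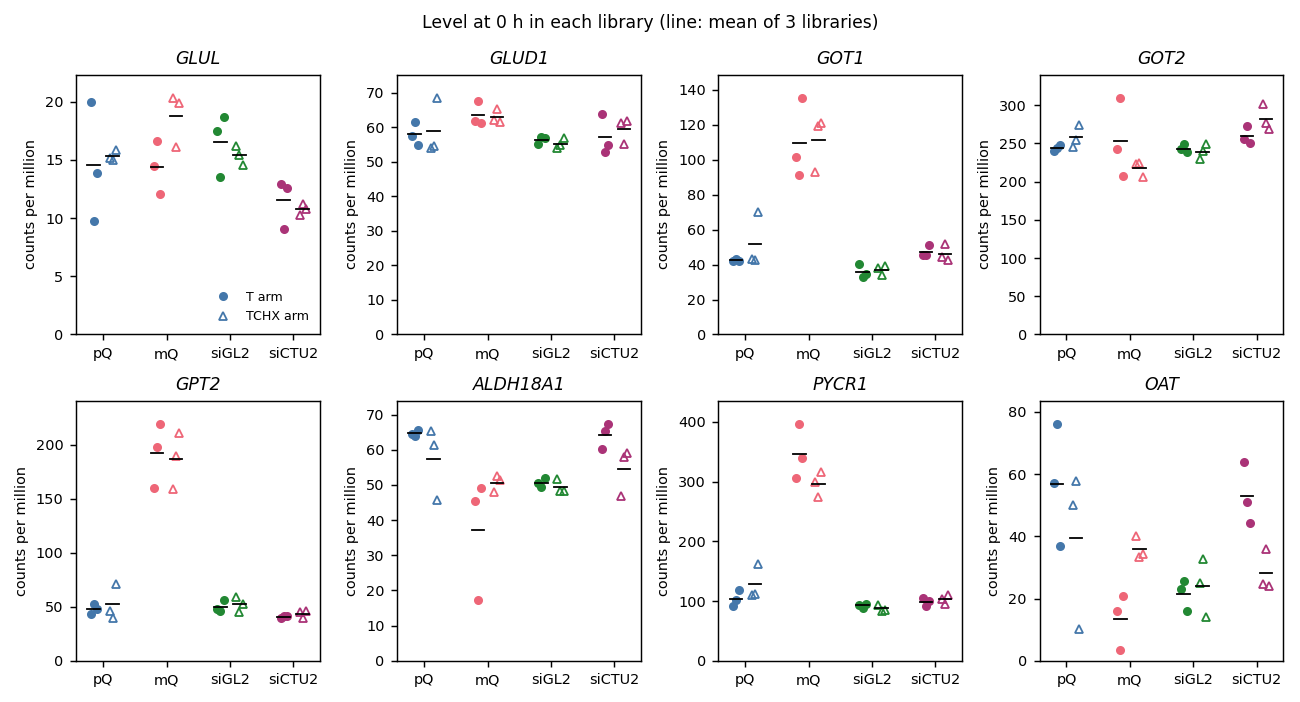
CPM at 0 h for the 8 members (vertical axes from 0) in pQ, mQ, siGL2 and siCTU2 libraries, with filled circles for the T arm, open triangles for the TCHX arm and a line at the mean of 3 libraries. GOT1, GPT2 and PYCR1 sit higher in the mQ libraries than in every pQ library of the same arm, and OAT in the mQ libraries differs between the arms.

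Of the transaminases, GPT2 (chromosome 16, 46884362 to 46931289, plus strand, GRCh38) was measured at 160, 197 and 219 CPM in the mQ libraries (mean 192 ± 29.8 SD, n = 3) and at 42.8, 52.2 and 47.5 CPM in the pQ libraries (47.5 ± 4.67 SD, n = 3). The lowest mQ library lay far above the highest pQ library. The log2 difference was 2.07 ± 0.14 SE, with an adjusted p of 2.79e-06. The TCHX arm, harvested at the same time, gave 159, 189 and 211 CPM for mQ and 46.3, 39.6 and 70.9 CPM for pQ, where 70.9 came from the library that stood apart.

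GOT1 (chromosome 10, 99396870 to 99430624, minus strand) was measured at 101, 91.1 and 135 CPM in mQ and at 41.8, 43.4 and 41.9 CPM in pQ libraries of the T arm at 0 h. The pQ values lay within 2 CPM of each other, and the mQ values did not reach down to them. The log2 difference was 1.42 ± 0.15 SE, with an adjusted p of 8.33e-05. GOT2 (chromosome 16, 58707131 to 58734342, minus strand), its mitochondrial counterpart, was measured at 242, 309 and 208 CPM in mQ and at 240, 244 and 247 CPM in pQ. Those groups overlapped, and the log2 difference of 0.11 ± 0.13 SE did not pass (adjusted p = 0.594).

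The promoter of GOT1 is shown because GOT1 was the only member with a match to the 8-letter motif TGATGNAA, read on both strands (the other strand reads TTNCATCA), which is the known form of the element bound by ATF4 with C/EBP factors. Promoters of 300 bases, from 250 before to 50 after a gene start, were taken from RefSeq (GRCh38.p14). They were matched by symbol for 6 members, with 2 for GLUL. GPT2 and PYCR1 are not among them. The motif occurs in 3.62% of the 35116 promoters in the set. Among the 16 genes of the wider list with a promoter it was found in BCAT1 and ASNS, in 1 of the promoters listed for each. Several of the 16 have more than 1 promoter. As 3.62% is a share of promoters, these gene counts are not set against it. BCAT1, like GOT1, rose without glutamine at 0 h. PSAT1 and ALDH4A1, also of the wider list, rose as well, and the promoters listed for them hold no match. A link between the motif and the rise was not tested. In GOT1 the match starts at position -198 and in BCAT1 at -48 relative to the gene start. The promoter of OAT, the member that was lower, is given beside them and holds no match. Capitals mark the motif, and the sequences read 5′ to 3′ on the strand of the gene. GOT1 is at chr10:99430575-99430874 (minus strand), BCAT1 at chr12:24949052-24949351 (minus strand) and OAT at chr10:124418874-124419173 (minus strand).
GOT1: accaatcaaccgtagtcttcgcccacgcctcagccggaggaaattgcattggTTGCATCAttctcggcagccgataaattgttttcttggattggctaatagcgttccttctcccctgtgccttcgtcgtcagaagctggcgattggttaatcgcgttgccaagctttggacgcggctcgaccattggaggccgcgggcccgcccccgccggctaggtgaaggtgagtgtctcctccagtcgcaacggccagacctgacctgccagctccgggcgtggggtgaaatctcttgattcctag
BCAT1: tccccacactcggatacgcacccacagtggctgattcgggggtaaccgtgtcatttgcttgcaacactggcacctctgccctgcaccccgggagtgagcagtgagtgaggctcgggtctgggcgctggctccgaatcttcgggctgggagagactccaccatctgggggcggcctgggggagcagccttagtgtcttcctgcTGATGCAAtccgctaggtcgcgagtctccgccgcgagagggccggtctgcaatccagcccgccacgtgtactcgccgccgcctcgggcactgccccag
OAT: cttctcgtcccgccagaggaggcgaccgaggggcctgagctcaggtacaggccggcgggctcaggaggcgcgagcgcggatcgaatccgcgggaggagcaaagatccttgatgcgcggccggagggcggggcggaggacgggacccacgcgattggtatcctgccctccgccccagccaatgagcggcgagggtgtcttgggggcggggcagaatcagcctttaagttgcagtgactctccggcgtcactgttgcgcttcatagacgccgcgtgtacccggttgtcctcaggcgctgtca
A match describes these letters only. Binding was not measured.

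Of the proline and ornithine enzymes, PYCR1 (chromosome 17, 81932384 to 81942412, minus strand) was measured at 305.3, 396 and 339 CPM in mQ and at 91.9, 101 and 119 CPM in pQ libraries of the T arm at 0 h. The groups did not overlap. The log2 difference was 1.79 ± 0.13 SE, with an adjusted p of 6.47e-06. In the TCHX arm PYCR1 was measured at 299, 274 and 317 CPM in mQ and at 110, 111 and 163 CPM in pQ, the last value again from the library that stood apart.

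OAT (chromosome 10, 124397303 to 124418976, minus strand) was measured at 16.0, 3.42 and 20.7 CPM in mQ and at 57.2, 75.9 and 36.9 CPM in pQ libraries of the T arm at 0 h. All mQ values were lower than all pQ values, but both groups were widely spread. The log2 difference was -2.05 ± 0.44 SE, with an adjusted p of 0.00629. The call did not hold in the TCHX arm, where the mQ libraries held 40.1, 33.3 and 34.4 CPM and the pQ libraries 49.9, 57.8 and 10.3 CPM. There the log2 difference was -0.10 (adjusted p = 0.927), and -0.56 (adjusted p = 0.00325) without the pQ library that stood apart, which held the 10.3 CPM. With both arms fitted together it was -1.03 (adjusted p = 0.105). Over all alternatives the adjusted p for OAT ranged from 8.33e-31 to 0.927.

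ALDH18A1 (chromosome 10, 95605941 to 95656711, minus strand) was measured at 45.3, 17.2 and 49.0 CPM in mQ and at 64.5, 63.8 and 65.5 CPM in pQ libraries of the T arm at 0 h. The mQ values were lower without overlap, and replicate 2, which was also the lowest for OAT, lay far below the others. The log2 difference of -0.75 ± 0.28 SE did not pass (adjusted p = 0.0638). Without mQ replicate 2 the log2 difference was smaller, -0.40, and passed (adjusted p = 0.0135), and without mQ replicate 3 it was -1.02 and passed as well (adjusted p = 0.0181). With the replicate number as a block it was -0.86 (adjusted p = 0.0436). In the TCHX arm it was -0.16 (adjusted p = 0.544), and -0.29 (adjusted p = 0.0728) without the pQ library that stood apart.

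Of the enzymes that act on glutamine and glutamate directly, GLUL (chromosome 1, 182378098 to 182392206, minus strand) was measured at 14.5, 16.6 and 12.03 CPM in mQ and at 19.96, 9.77 and 13.9 CPM in pQ libraries. These values were interleaved, with a log2 difference of 0.05 ± 0.25 SE (adjusted p = 0.913). GLUD1 (chromosome 10, 87050202 to 87094843, minus strand) was measured at 61.6, 67.5 and 61.1 CPM in mQ and at 57.5, 61.6 and 54.8 CPM in pQ. Its log2 difference was 0.18 ± 0.11 SE (adjusted p = 0.25). GLUD1 overlaps SHLD2 on the other strand, and whether reads were counted by strand is not stated in the sources used here. The pseudogene names GLUD1P2 and GLUD1P3 held at most 1.498% of the GLUD1 count in any library.

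The rise of GOT1, GPT2 and PYCR1 in mQ cells was seen at each later time and in both arms. In each of the 6 arm and time groups, every mQ library lay above every pQ library for these 3 members, against 2.18% of 12366 genes with a mean of at least 1 CPM (3.25% in either direction). This held although mQ T 5 h replicate 3 and pQ TCHX 0 h replicate 3, which stood apart, are among them. As the members were chosen with earlier results of these data known, the shares are a description. GOT1 lay between 91.1 and 145 CPM in the 18 mQ libraries and between 31.6 and 70.0 CPM in the 18 pQ libraries. GPT2 lay between 104 and 219 CPM in mQ and between 35.9 and 70.9 CPM in pQ. PYCR1 lay between 226 and 603 CPM in mQ and between 91.9 and 209.9 CPM in pQ, with both upper values from 5 h replicate 3. For none of the 3 did the ranges of the 18 libraries overlap. GOT2 was lower in mQ without overlap in 4 of the 6 groups, and GLUD1 higher in 3. The share of all genes that separate in only some of the groups was not counted, so no effect is read from this.

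In the CTU2 experiment, OAT rose 2.44-fold, GOT1 1.32-fold and ALDH18A1 1.27-fold when CTU2 was depleted (siCTU2 against siGL2, T arm, 0 h), while GLUL fell 1.44-fold and GPT2 fell 1.24-fold. These 5 of 8 members passed the test, against 36% of all 12292 genes tested, 17.8% higher and 18.2% lower. The members' median log2 difference was 0.09, beside 0.0048 over all genes. PYCR1, GOT2 and GLUD1 did not pass. Leaving out 1 library at a time left 3 or 4 of the calls, 3 without siCTU2 replicate 2, siCTU2 replicate 3, siGL2 replicate 1 or siGL2 replicate 3.

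OAT was measured at 63.96, 50.9 and 44.3 CPM in siCTU2 and at 23.1, 25.8 and 15.9 CPM in siGL2 libraries. The groups did not overlap, and the log2 difference was 1.29 ± 0.16 SE (adjusted p = 6.54e-06). In the TCHX arm at 0 h the siCTU2 libraries held 24.6, 35.96 and 23.9 CPM and the siGL2 libraries 25.0, 32.6 and 14.1 CPM, which overlapped. The log2 difference there was 0.26 (adjusted p = 0.38), and 0.78 (adjusted p = 0.00185) with both arms fitted together. So for OAT both 0 h calls were made in the T arm and neither in the TCHX arm with all its libraries, although both arms were harvested right after the drugs were added.

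GOT1 was measured at 45.5, 45.6 and 51.2 CPM in siCTU2 and at 40.4, 32.9 and 34.6 CPM in siGL2 libraries. All siCTU2 values were higher, with a log2 difference of 0.40 ± 0.12 SE (adjusted p = 0.0116), and 0.33 (adjusted p = 0.0343) in the TCHX arm. Without siCTU2 replicate 3 or siGL2 replicate 2 the call was lost (adjusted p = 0.0512 and 0.058). Over the time course the siCTU2 libraries lay above the siGL2 libraries without overlap in 5 of the 6 arm and time groups. The share of all genes that separate in 5 was not counted. No member separated in all 6, against 9.83% of genes that did so in 1 direction or the other. GPT2 went the other way, at 39.6, 41.2 and 41.1 CPM in siCTU2 and 48.2, 46.0 and 56.4 CPM in siGL2, with a log2 difference of -0.30 ± 0.11 SE (adjusted p = 0.0376). Its adjusted p lay between 0.055 and 0.186 in 5 of the 6 fits that left out 1 library, namely without siCTU2 replicate 1, 2 or 3 and without siGL2 replicate 1 or 3, and at 0.11 in the TCHX arm.

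ALDH18A1 was measured at 60.3, 65.3 and 67.2 CPM in siCTU2 and at 50.5, 49.4 and 52.0 CPM in siGL2, a log2 difference of 0.34 ± 0.10 SE (adjusted p = 0.00916). The call was kept in each fit that left out 1 library and lost in the TCHX arm (0.15, adjusted p = 0.29). GLUL was measured at 12.96, 9.04 and 12.6 CPM in siCTU2 and at 17.4, 13.6 and 18.6 CPM in siGL2. Every siCTU2 value was lower, with a log2 difference of -0.52 ± 0.19 SE (adjusted p = 0.0397) and nearly the same in the TCHX arm (-0.51, adjusted p = 0.0225). Its call was lost without siCTU2 replicate 2, siGL2 replicate 1 or siGL2 replicate 3 (adjusted p from 0.11 to 0.169).

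PYCR1 was measured at 105, 91.0 and 100.0 CPM in siCTU2 and at 93.9, 88.1 and 95.8 CPM in siGL2. The groups overlapped, and the log2 difference was 0.09 ± 0.09 SE (adjusted p = 0.443). GOT2 was measured at 256, 273 and 250.2 CPM against 242, 249 and 238 CPM, without overlap but with a log2 difference of 0.09 ± 0.07 SE that did not pass (adjusted p = 0.32). Both passed in the TCHX arm, where the log2 difference was 0.24 for PYCR1 (adjusted p = 0.0487) and 0.25 for GOT2 (adjusted p = 0.0162). GLUD1 was measured at 63.9, 52.7 and 54.8 CPM against 55.2, 57.0 and 56.9 CPM, with a log2 difference of 0.01 ± 0.10 SE (adjusted p = 0.934).

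**Figure D2:**
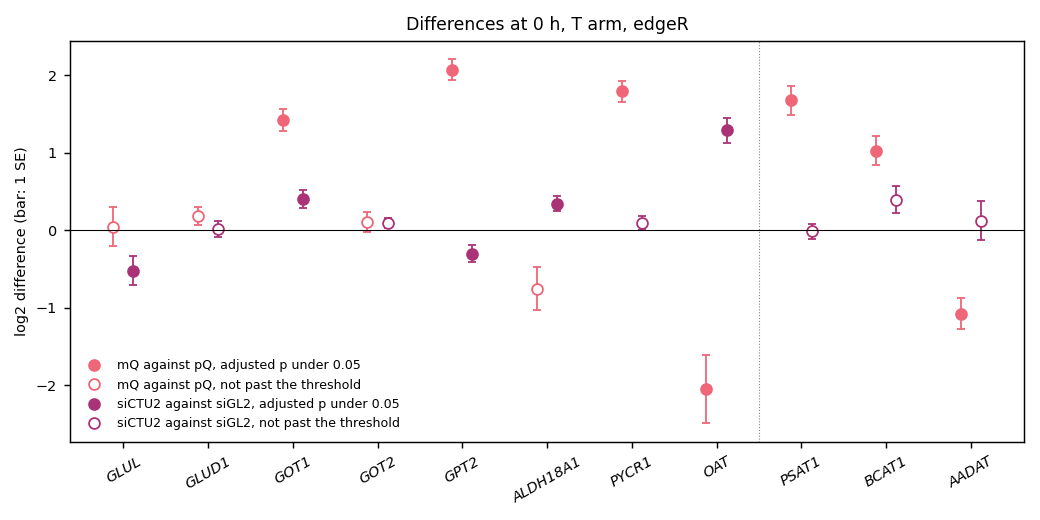
Log2 difference at 0 h in the T arm (edgeR, vertical axis, bars of 1 SE) of mQ against pQ and of siCTU2 against siGL2 for the 8 members and 3 further genes of the pathway, filled where the adjusted p was under 0.05. PYCR1, GPT2 and PSAT1 were past the threshold and higher in mQ, at log2 differences of 1.79, 2.07 and 1.68, and OAT was on opposite sides in the comparisons, at -2.05 and 1.29.

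The responses to glutamine depletion and to CTU2 depletion were compared in 1 model of 12 libraries, each set against its own control. They differed for 5 of 8 members, against 32% of all 12950 genes tested. The response to glutamine depletion was the higher of the pair by a log2 difference of 2.37 ± 0.18 SE for GPT2 (adjusted p = 1.62e-08), 1.70 ± 0.16 SE for PYCR1 (adjusted p = 3.5e-07) and 1.02 ± 0.19 SE for GOT1 (adjusted p = 0.000443). It was the lower of the pair for OAT, by -3.34 ± 0.52 SE (adjusted p = 8.33e-05), and for ALDH18A1, by -1.10 ± 0.31 SE (adjusted p = 0.0123). GLUL, GLUD1 and GOT2 did not pass. In the TCHX arm OAT (-0.36, adjusted p = 0.713) and ALDH18A1 (-0.31, adjusted p = 0.241) lost the call, while GPT2, PYCR1 and GOT1 kept it. GLUL passed there at 0.81 (adjusted p = 0.0103), and GOT2 passed in the lower direction at -0.48 (adjusted p = 0.00664). Without the pQ library that stood apart OAT (-0.83, adjusted p = 0.0394) and ALDH18A1 (-0.45, adjusted p = 0.0338) passed again. The transfected cells and the cells given new medium differed in handling and timing, so experiment and treatment cannot be told apart here beyond what each control takes out.

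Taking the 4 conditions together in the T arm at 0 h, GPT2 and PYCR1 ranked mQ above the other 3 conditions, with every mQ library above all 9 others. Next came siGL2 with a mean of 50.2 CPM, pQ with 47.5 and siCTU2 with 40.7 for GPT2, where siGL2 and pQ overlapped. For PYCR1 the means were 347 CPM in mQ, 104 in pQ, 98.8 in siCTU2 and 92.6 in siGL2, and the last 3 overlapped. GOT1 ranked mQ at 109, siCTU2 at 47.4, pQ at 42.3 and siGL2 at 35.96, with no overlap between neighbours in that order. OAT ranked pQ at 56.7, siCTU2 at 53.1, siGL2 at 21.6 and mQ at 13.4 CPM, where pQ and siCTU2 overlapped and so did siGL2 and mQ. Differences between an mQ or pQ group and a siRNA group were not tested alone.

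A wider list of 21 genes of glutamine, glutamate and proline metabolism and of aminotransferases gave 13 that could be tested. In mQ against pQ cells 3 rose and 1 fell, and in siCTU2 against siGL2 cells 1 rose and 2 fell, beside 24.8% and 36% of all genes called. The list medians were -0.12 and -0.014 on the log2 scale, beside 0.0098 and 0.0048 over all genes. PSAT1, the serine pathway transaminase that uses glutamate as its amino donor, was measured at 406, 276 and 528 CPM in mQ and at 133, 138 and 121 CPM in pQ. All 3 mQ libraries exceeded every pQ library, with a wide spread among them (log2 difference 1.68 ± 0.19 SE, adjusted p = 0.000142). PSAT1, like GOT1, GPT2 and PYCR1, was higher in mQ without overlap in all 6 arm and time groups.

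The remaining calls in mQ cells were those of ALDH4A1, which oxidises the proline precursor to glutamate and was higher (0.82 ± 0.16 SE, adjusted p = 0.00383), BCAT1 and AADAT. In siCTU2 cells GAD1, a glutamate decarboxylase, was higher (0.96 ± 0.16 SE, adjusted p = 0.00012), and NIT2 (-0.26 ± 0.09 SE, adjusted p = 0.0291) and SLC25A13, a mitochondrial aspartate and glutamate carrier (-0.38 ± 0.09 SE, adjusted p = 0.00293), were lower. ALDH4A1, GAD1, NIT2 and SLC25A13 are named after their values were seen. BCAT1, the cytosolic branched-chain transaminase, was 2.04-fold higher in mQ (log2 difference 1.03 ± 0.18 SE, adjusted p = 0.00262), and AADAT, an aminoadipate transaminase, was 2.11-fold lower (-1.08 ± 0.20 SE, adjusted p = 0.0033). In the TCHX arm neither passed, with 0.37 for BCAT1 (adjusted p = 0.649) and -0.22 for AADAT (adjusted p = 0.633). Without the pQ library that stood apart BCAT1 passed there (1.31, adjusted p = 1.07e-06), and AADAT did not (-0.37, adjusted p = 0.252). The 3 libraries that stood apart held 72.9 to 92.3 CPM of BCAT1, above the highest of the other 69, 64.5 CPM. ASNS, asparagine synthetase, was at 0 in 52 of 72 libraries and reached 1.02 CPM at most, so it could not be tested. GLUD2 and SLC25A12 were at 0 in 71 libraries, GLS2 in 70, the cytosolic alanine transaminase GPT in 59, PRODH in 55 and PYCR3 in 38. The ASNS gene overlaps another annotated gene on the same strand.

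**Figure D3:**
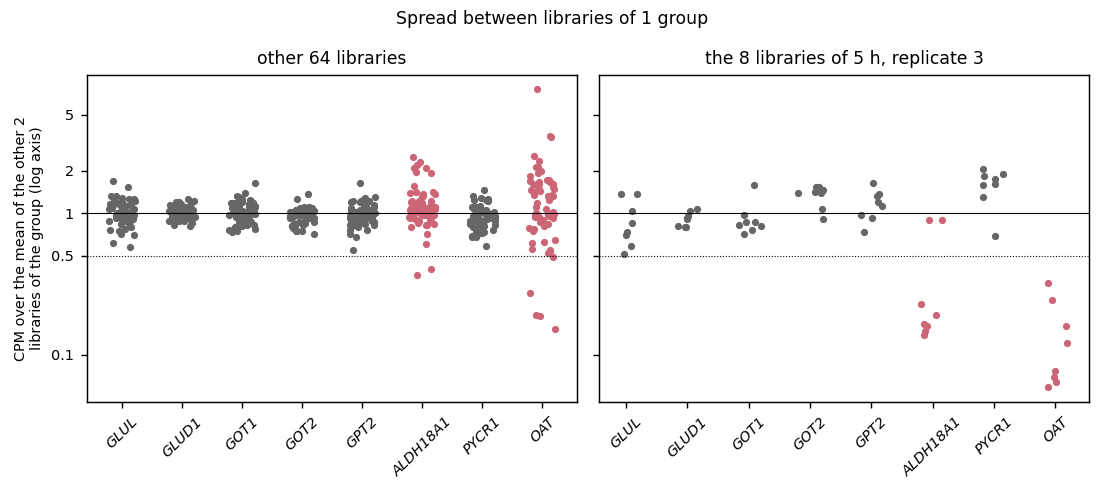
CPM of each library over the mean of the other 2 libraries of its group (log axis, dotted line at 0.5) for the 8 members, in the 64 libraries other than 5 h replicate 3 (left) and in the 8 libraries of 5 h replicate 3 (right). OAT lay below 0.5 in all 8 libraries on the right and ALDH18A1 in 6 of them.

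OAT, and in a few libraries ALDH18A1, lay far below the other libraries of their group. In all 8 libraries labelled 5 h replicate 3, in both arms and all 4 conditions, OAT was at 0.0594 to 0.324 of the mean of the other 2 libraries of its group. ALDH18A1 was at 0.138 to 0.894, and below 0.5 in 6 of the 8. In mQ T 0 h replicate 2 the ratios were 0.187 for OAT and 0.365 for ALDH18A1, and in siCTU2 TCHX 5 h replicate 2 they were 0.151 and 0.404. In the other 62 libraries OAT was below 0.5 in 3 and ALDH18A1 in none. The remaining 6 members stayed above 0.5 in all 72 libraries. PYCR1 lay at 0.69 to 2.04 in the 5 h replicate 3 libraries, and GOT2 at 0.915 to 1.54.

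The drop was not particular to these members. Of 8224 genes with a mean of at least 10 CPM, 1.14 to 16.4% were below 0.5 of their group in the 5 h replicate 3 libraries, against 0.0243 to 10.4% in the 62 others. The 5 h replicate 3 libraries that stood apart held 1.14% (mQ T) and 1.26% (siCTU2 TCHX). The 10.4% was that of mQ T 5 h replicate 1, whose comparison mean includes the mQ library that stood apart. The median coefficient of variation over the 24 groups was 38.7% for OAT, and between 5.79 and 14.3% for the other 7 members. Over groups it reached 119% for OAT and 73.7% for ALDH18A1. What set these libraries apart was not tested.

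The next question was how each mRNA changed once transcription was blocked. Levels were scaled to genes defined as stable after the approach of the study methods, 82 in the glutamine experiment and 198 in the CTU2 experiment. They were chosen in these same libraries, for a CPM at 3 or 5 h of at least 1.1 times that at 0 h. Such genes rose against the rest, so a fall of the median gene on this scale follows from how they were chosen. On this scale the median gene fell by 0.66 on the log2 scale in mQ, by 0.71 in pQ, by 0.71 in siCTU2 and by 0.59 in siGL2 cells, as the mean of 3 and 5 h against 0 h in the T arm. With TMM scaling, which centres the typical gene, these medians lie 0.60 to 0.69 higher, so the direction of a member's change depends on the scaling and is given here relative to stable genes, beside its distance from the median gene.

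GPT2 fell in all 4 conditions, by 0.97 ± 0.15 SE on the log2 scale in mQ (adjusted p = 0.000111), by 0.72 ± 0.14 SE in pQ (adjusted p = 0.000247), by 0.71 ± 0.17 SE in siCTU2 (adjusted p = 0.00184) and by 0.72 ± 0.15 SE in siGL2 (adjusted p = 0.00071). After 3 h, GPT2 stood at 55.4% ± 3.08 (SD, n = 3) of its 0 h level in mQ, 63.9% ± 3.94 in pQ, 59.6% ± 5.35 in siCTU2 and 57.8% ± 2.05 in siGL2. The 12 values lay between 53.1 and 68.4%. Against the median gene, the log2 change of GPT2 lay at -0.32 in mQ, -0.009 in pQ, 0.004 in siCTU2 and -0.13 in siGL2. GPT2 was the only member to pass in every condition, and with TMM scaling it passed in none of them and its sign in siCTU2 turned. Without replicate 2 its call in mQ was lost (adjusted p = 0.094).

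The other members were called in some conditions. GOT1, GLUD1 and GLUL were each lower in 3 of 4, GOT2 in 2 and PYCR1 in 1, and OAT and ALDH18A1 in none. In all, 6 of 8 members were lower in mQ, against 58.6% of all genes, 4 in pQ against 64.3%, 5 in siCTU2 against 62.6% and 1 in siGL2 against 47.5%. With the replicate number as a block, 6 members were lower in pQ and 3 in siGL2, and without the libraries that stood apart the counts were 6 in mQ, 3 in pQ, 5 in siCTU2 and 3 in siGL2. The members' medians, -0.49 in mQ, -0.60 in pQ, -0.57 in siCTU2 and -0.44 in siGL2, lay above the medians of all genes. With TMM scaling no member was called lower in any condition. The members called there were higher, namely GOT2 in pQ (0.47, adjusted p = 0.0395), siCTU2 (0.48, adjusted p = 0.0195) and siGL2 (0.52, adjusted p = 0.0285) and GLUD1 in siCTU2 (0.35, adjusted p = 0.0224). On the stable-gene scale, the counts of members called lower in mQ, pQ, siCTU2 and siGL2 were 1, 2, 1 and 1 without replicate 1, 0, 1, 3 and 1 without replicate 2, and 5, 6, 3 and 3 without replicate 3, where 1 more member was called higher in mQ. The shares of all genes given above belong to the main fit. Counts from the other fits stand without such shares, so no effect on the members is read from them.

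**Figure D4:**
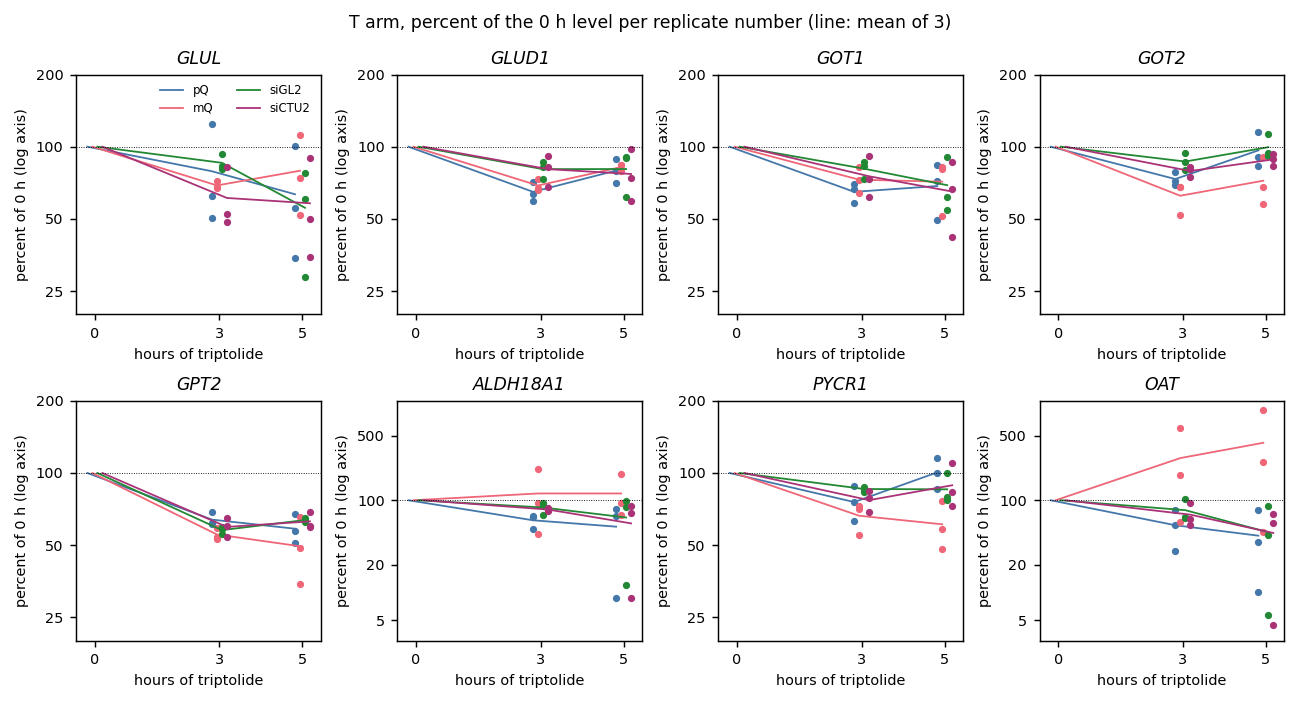
Level in the T arm as a percent of the 0 h library of the same replicate number (log axis, wider for ALDH18A1 and OAT) against hours of triptolide, scaled to stable genes, with points for 3 replicates and lines for their mean in 4 conditions. GPT2 falls to 53.1 to 68.4% by 3 h in all 12 libraries, while OAT spans 4.46 to 956% at 5 h.

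GOT1 stood at 64.8% ± 6.15 (SD, n = 3) of its 0 h level after 3 h in pQ and at 72.8% ± 8.90 in mQ. After 5 h it stood at 68.5% ± 17.4 in pQ and at 71.4% ± 17.4 in mQ. The values of both conditions overlapped at each time. The log2 change was -0.58 ± 0.17 SE in pQ and -0.52 ± 0.17 SE in mQ. PYCR1 stood at 66.3% ± 9.68 after 3 h in mQ and 75.6% ± 12.5 in pQ, and its change passed in mQ only (-0.67 ± 0.17 SE, adjusted p = 0.00256), with -0.20 ± 0.16 SE in pQ (adjusted p = 0.259). OAT stood at 261, 956 and 44.7% after 5 h in mQ, where the 956% was measured against the 0 h replicate 2 library with 3.42 CPM, and at 78.4, 35.2 and 10.1% in pQ.

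The change over time was not shown to differ between conditions for any member. With edgeR, 0 of 8 members and 0% of all genes passed in mQ against pQ, and 0 of 8 members and 0.105% of genes in siCTU2 against siGL2. At an unadjusted p under 0.05 the members' count was 0 in both, and that of all genes was 878 and 772. DESeq2 called 0 members, and 5 and 69 genes. The difference for PYCR1 was -0.47 ± 0.24 SE (unadjusted p = 0.0581), for GOT2 -0.36 ± 0.19 SE and for OAT 1.82 ± 1.04 SE. Without replicate 3 the differences for OAT (2.49, adjusted p = 0.000796) and PYCR1 (-0.47, adjusted p = 0.0295) passed, and that for OAT also passed without a filter on low counts (adjusted p = 2.28e-06).

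Cycloheximide stops ribosomes, and an mRNA whose loss needs translation is held at a higher level in the TCHX arm than in the T arm. Over 3 and 5 h, 0 of 8 members differed between the arms in mQ, against 5.24% of all genes, 0 in pQ against 12.7%, 1 in siCTU2 against 21.1% and 0 in siGL2 against 12.7%. At an unadjusted p under 0.05 the members' counts were 1, 0, 2 and 1. The genes past it were 2567 of 13442 in mQ, 2863 of 13347 in pQ, 4204 of 13638 in siCTU2 and 2814 of 13161 in siGL2. DESeq2 called 0, 0, 2 and 0 members, beside 1159, 2053, 3291 and 2032 genes. The 1 call was GPT2 in siCTU2 cells, higher with cycloheximide by 0.46 ± 0.14 SE (adjusted p = 0.0247), where the median gene was higher by 0.22. Without the libraries that stood apart it was 0.24 (adjusted p = 0.264), without replicate 2 it was 0.35 (adjusted p = 0.287) and without replicate 3 it was 0.36 (adjusted p = 0.0814). GPT2 differed by 0.34 ± 0.13 SE in mQ (adjusted p = 0.136), by 0.33 ± 0.12 SE in siGL2 (adjusted p = 0.101) and by 0.14 ± 0.11 SE in pQ (adjusted p = 0.576).

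The study summarised this as a TDD index (translation-dependent decay), the TCHX level minus the T level, divided by the 0 h level. For GPT2 the 6 values in mQ ran from 0.0759 to 0.192 (mean 0.141) and in pQ from -0.017 to 0.177 (mean 0.0636). All 6 mQ values were above 0, and the conditions overlapped. For GOT2 they ran from -0.0573 to 0.0521 in mQ (mean 0.000114) and from -0.12 to -0.0377 in pQ (mean -0.0799). Most mQ values lay above the pQ values. The median over 12428 genes was 0.0264 in mQ and 0.0266 in pQ.

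**Figure D5:**
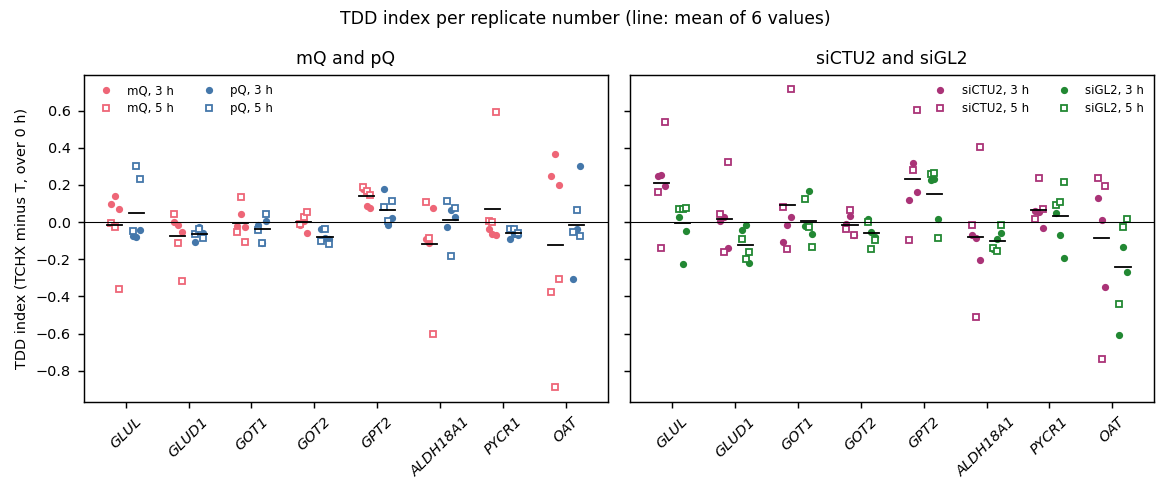
TDD index of the 8 members for each replicate number (filled circles 3 h, open squares 5 h, line at the mean of 6 values) in mQ and pQ cells (left) and in siCTU2 and siGL2 cells (right). GPT2 is above 0 in all 6 mQ values, and the index of OAT spans -0.887 to 0.367 in mQ.

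In the study's linear model of condition, time and replicate (fitted with limma), GOT2 and GPT2 had a higher index in mQ than in pQ, by 0.08 ± 0.02 SE (unadjusted p = 0.00843) and by 0.08 ± 0.03 SE (unadjusted p = 0.0288). These 2 of 8 members passed the unadjusted threshold of 0.05, as did 4.79% of all genes, a share no larger than the threshold itself. Their adjusted p was 0.764 and 0.963. The 3 h and 5 h values of a replicate share its 0 h libraries, so they are not independent and such p-values are too small. In siCTU2 against siGL2 cells 0 of 8 members passed, as did 8.16% of genes. The largest difference there was that of GLUL, 0.21 ± 0.10 SE (unadjusted p = 0.0708, adjusted p = 0.649). Both calls in mQ against pQ were lost with TMM scaling, without the libraries that stood apart, without replicate 1 and without replicate 2. The call of GPT2 was also lost without replicate 3, without the replicate term and with each arm divided by its own 0 h library. In all, GPT2 lost it in 7 of 9 alternatives and GOT2 in 4.

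Finally, the genes whose group means over the 24 groups were most like each member were listed, by Pearson correlation of log2(CPM + 1) among 8224 genes. The points share libraries and treatments, and the correlations are a description. GOT1 was closest to DDR2 (r = 0.986) and PHGDH (0.98), GPT2 to LINC00662 (0.982) and NUPR1 (0.98), and PYCR1 to WARS1 (0.982) and SARS1 (0.981). ALDH18A1 was closest to CSTB (0.969) and PFN1 (0.955), OAT to PFDN2 (0.948) and GPN3 (0.946), and GOT2 to AUP1 (0.976) and FBXW5 (0.963). GLUL was closest to SMG5 (0.892) and OCRL (0.887) and GLUD1 to PEBP1 (0.876) and TRNL1 (0.845). Among the members, GOT1 with PYCR1 (0.938), GPT2 with PYCR1 (0.936), GOT1 with GPT2 (0.927) and ALDH18A1 with OAT (0.829) had the highest values. GOT2 was negatively correlated with 6 of the other 7 members. The group means at 5 h include the replicate 3 libraries. There OAT lay at 0.0594 to 0.324, ALDH18A1 at 0.138 to 0.894 and GOT2 at 0.915 to 1.54 of the mean of the other 2 libraries of their group. Whether the correlations of OAT, ALDH18A1 and GOT2 rest on those libraries was not tested.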

How the data were processed

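The authors deposited 1 table of raw counts per gene, made with fastp 0.20.1, HISAT2 2.2.1 and HTSeq 0.13.5 on GRCh38.p13 from forward QuantSeq reads, per the labels and the study methods. No unique molecular identifiers are stated, and ERCC spike-ins were not used here. Columns were assigned to groups by their labels. The members and lists were chosen with earlier results of these data known. All 8 members and 13 of 21 further pathway genes passed edgeR's filter on low counts, and 1 more gene of the list is not reported here. Named were the members, ASNS, PSAT1, pathway genes past the threshold with at least a 2-fold change at 0 h, CTU2, and the 2 genes most correlated with each member. The comparisons at 0 h used TMM scaling and edgeR 4.0.16 (quasi-likelihood test, Benjamini-Hochberg) in R 4.3.3, on the libraries compared. The T arm and cycloheximide contrasts used size factors from stable genes (over 0.2 CPM at 0 h and at least 1.1 times their 0 h CPM at 3 or 5 h, in every condition, arm and replicate). The TDD index was fitted as a linear model with limma 3.58.1, without moderation of the spread, for genes with at least 10 normalised counts at 0 h. DESeq2 1.42.0, other scalings, other filters, the other arm, a replicate block and leaving out libraries were alternatives. Gene coordinates are those of GENCODE on GRCh38. Steps were tested on simulated data. Intervals marked SD are over 3 libraries. The SE of an edgeR fit is the size of the log2 difference divided by the square root of its F statistic, whose spread estimate draws on all genes tested. The SE of the TDD model comes from 12 index values per gene. Depth set the counts behind the members, from 12 to 5558 in a library.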

Additional observations from a re-analysis of the deposited data

Results flagged for a closer look

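GOT2 and GPT2 were singled out because the cycloheximide effect, as the TDD index, differed between mQ and pQ cells by the study's unadjusted test, by 0.0800 for GOT2 and by 0.0770 for GPT2. Neither passed after adjustment over all genes (adjusted p = 0.764 and 0.963 in the limma model), and 4.79% of all genes passed the same unadjusted threshold. With 3 libraries a group, no group was searched for single outlying values.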

How the results depend on the processing

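Single-gene results stayed on the same side of the threshold in 1379 cases, where the sign could differ if neither setting was called. The threshold was lost in 87 cases and passed in 67, and 19 were reversed. A reversal was counted only where the sign changed and the value was called in the main or the other setting. The rises of GOT1, GPT2 and PYCR1 in mQ cells at 0 h passed in all 13 alternatives. Leaving out the pQ library that stood apart in the TCHX arm was chosen after seeing the data. The counts of members below are given without the share of all genes called in the same fit. They show how calls depend on the setting, and no effect particular to the members is read from them. In numbers of members called, leaving out 1 library gave 4 to 5 for glutamine depletion, 3 to 4 for CTU2 depletion and 5 for their difference. Leaving out 1 replicate number gave 0 to 6 for the T arm change in mQ, 1 to 6 in pQ, 1 to 3 in siCTU2 and 1 to 3 in siGL2, 0 to 1 for the cycloheximide effect in mQ, 0 to 1 in siCTU2 and 0 to 2 in siGL2, 0 to 2 for the difference in T arm change between mQ and pQ, and 0 to 1 for each TDD comparison. TMM scaling gave 0, 1 and 2 for the T arm change in mQ, pQ and siCTU2, 0 and 1 for cycloheximide in siCTU2 and siGL2, and 0 for the TDD index in mQ against pQ. Genes stable at both times (3 and 8 genes) gave 7 in pQ and 6 in siGL2 for the T arm change, 3 and 0 for cycloheximide in pQ and siCTU2, and 4 for the TDD index in mQ against pQ. DESeq2 gave 2 for cycloheximide in siCTU2 and 2 for the T arm change in siGL2. The 3 h libraries alone gave 3 for the T arm and 0 for cycloheximide in siCTU2, and the 5 h libraries alone gave 2 in pQ and 3 in siGL2 for the T arm and 0 for cycloheximide in siCTU2. Without the libraries that stood apart the numbers were 0 for cycloheximide in siCTU2, 3 for the T arm in siGL2 and 0 for the TDD index in mQ against pQ. Without a filter on low counts the difference in T arm change between mQ and pQ held 1. The TDD comparisons gave 4 and 1 when T and TCHX levels were each divided by the 0 h level of the same arm. Same-numbered libraries had deviations correlated above 0.1 in 12 of 18 pairs of the glutamine and 15 of 18 of the CTU2 experiment, and in all 3 pairs of the CTU2 experiment in the T arm at 0 h. The correlations ran from -0.177 to 0.881 in the glutamine and from -0.390 to 0.883 in the CTU2 experiment. Both highest values were those of 5 h replicate 3, in the TCHX arm and in the T arm respectively. The column names of same-numbered libraries also share a prefix, which is the same in all conditions, arms and times. The numbers may therefore mark sets handled together. The labels do not say what the prefix stands for, and not every pair passed, so the main edgeR fits hold no block. Their p-values for the T arm and cycloheximide contrasts thus leave such sharing out, while the TDD model holds a replicate term. A replicate block gave 6 for the T arm change in pQ, 3 in siGL2, 5 for glutamine depletion and 5 for CTU2 depletion, and the TDD index in mQ against pQ had 1 without its replicate block. Reversed under TMM scaling, as log2 changes in the T arm, were GLUL (0.20), GLUD1 (0.27), GOT1 (0.18), GOT2 (0.067) and PYCR1 (0.026) in mQ, GLUL (0.053), GLUD1 (0.22), GOT1 (0.11) and GOT2 (0.47) in pQ, GLUD1 (0.35), GOT1 (0.16), GOT2 (0.48) and GPT2 (0.015) in siCTU2 and GOT2 (0.52) in siGL2, where the median of all genes moves by 0.60 to 0.69. In the difference of responses GOT2 was reversed in the TCHX arm (-0.48, and -0.43 without the pQ library that stood apart), as was AADAT (0.14). In the TDD index GLUD1 in mQ against pQ was reversed with genes stable at both times (0.126) and GOT2 in siCTU2 against siGL2 without replicate 2 (-0.0393, where leaving out 1 replicate number gave -0.0393 to 0.0703). For all other changes with a setting the cause was not tested. The lowest counts in a library were 12 for OAT, 51 for ALDH18A1 and 52 for GLUL.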
